A study of Homo sapiens with 12 samples.

Results

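The genes of the G1 to S transition are described here as they appeared in AlkAniline-Seq of LNCaP-AI prostate cancer cells, with the cyclin D genes CCND1 and CCND3, the cyclin E genes CCNE1 and CCNE2, the kinases CDK4, CDK6 and CDK2, the inhibitor CDKN1B, and RB1 with its partner E2F1. They were chosen by name for their place in 1 pathway and were found by their Ensembl IDs, which made 10 of the 18569 gene IDs and 722 of the 842183 positions in the data. LNCaP-AI is a castration-resistant derivative of the LNCaP prostate cancer line, and all groups shared this line and its culture under androgen deprivation. The shMETTL1 cells carried a hairpin for stable knockdown of METTL1, the methyltransferase that places N7-methylguanosine (m7G) on RNA. The shscramble cells carried a scrambled hairpin. Each group had 3 replicates, and each replicate had an AlkAniline-Seq library and an input library, 12 libraries in all. The study asked how METTL1 affects m7G inside mRNA in these cells. In AlkAniline-Seq a chemical cut opens the RNA at m7G and sequencing starts from the new end, which places the first base of a read beside the modified base, and the input lacks that selection. The hairpin defines the shMETTL1 group and is shown for that reason, with its sense stem in capitals, followed by the loop and the antisense stem, written 5′ to 3′.
shMETTL1: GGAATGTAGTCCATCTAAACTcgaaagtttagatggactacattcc

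As background, cells pass from G1 into S phase when cyclin D bound to CDK4 or CDK6, and then cyclin E bound to CDK2, phosphorylate the retinoblastoma protein. RB holds E2F transcription factors inactive, and once it is phosphorylated E2F1 and its relatives switch on the genes of DNA replication, the E-type cyclins among them. The inhibitor p27, the product of CDKN1B, binds and blocks the cyclin E and CDK2 complex. In prostate cells androgen signalling acts on this step, and castration-resistant cells divide without the usual androgen supply.

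For each position the files gave the reads that begin there and the coverage, the reads that span it, in both the AlkAniline-Seq and the input library. Reads were summed per gene, and the gene sums are called reads below. The AlkAniline-Seq libraries held 2474464 to 2764417 reads in shMETTL1 and 1421551 to 2624431 reads in shscramble, and the input libraries 2783709 to 3258499 in shMETTL1 and 3045523 to 3152800 in shscramble. The 10 genes took 0.115%, 0.0982% and 0.0764% of AlkAniline-Seq reads in shMETTL1 replicates 1, 2 and 3, against 0.0692%, 0.0620% and 0.0689% in shscramble replicates 1, 2 and 3, and this order of replicates is kept for all values below. In the input they took 0.0725%, 0.0687% and 0.0904% of reads in shMETTL1 and 0.0565%, 0.0627% and 0.0622% in shscramble. The groups did not overlap in that share of unscaled reads in either assay. After the scaling used below, 0 of the 10 genes separated the groups in the input. CDKN1B alone gave 690, 963 and 265 of the AlkAniline-Seq reads in shMETTL1, against 112, 136 and 53 in shscramble. How often other sets of genes separate the groups in this way was not tested. The labels do not say that replicates were separate cultures, so every p-value measures only the spread between these samples, which may be technical. In bulk RNA, fewer cells that express a gene and less RNA per cell cannot be told apart.

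The shscramble replicate 1 library stood apart in the positions it covered. Where shscramble replicate 2 had at least 50 reads at a position, replicate 1 also had a read there in 99.9% of cases over all gene IDs, and where shscramble replicate 3 had as many, in 100%. For the 10 genes the same held at 13 of 13 such positions of replicate 2 and at 4 of 4 of replicate 3. Over all gene IDs the highest share in any other ordered pair of AlkAniline-Seq libraries was 63.4%. The part of this sharing in the results was not tested. Whether shscramble replicate 1 is independent of replicates 2 and 3 is not known. Every test and every count of non-overlap below treats it as a separate control, so n = 3 may not hold for shscramble. The AlkAniline-Seq log2 fold changes of CDK2, CDKN1B and RB1 are given without that library as well. METTL1 and the markers of prostate or other cells were not looked up, for want of a table that pairs Ensembl IDs with names, so neither the knockdown nor the cell type was checked in these data.

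Reads were tested per gene with edgeR's quasi-likelihood test after TMM scaling, over all gene IDs that passed a filter on low counts. Of the 10 genes, 9 passed the filter in AlkAniline-Seq and CCNE2 did not. At an adjusted p under 0.05, 0 of the 9 were called in either direction, beside 0.00901% of all gene IDs tested. At an unadjusted p under 0.05, 2 of the 9 were higher in shMETTL1, CDKN1B and RB1, beside 3.84% of all gene IDs, and 0 were lower, beside 3.14%. These shares are 426 gene IDs higher and 348 lower, and scaling by library size alone gave 327 higher and 410 lower, with 2 of the 9 still higher. The median log2 fold change of shMETTL1 over shscramble was 0.15 over the 9 genes and 0.07 over all gene IDs tested, and 6 of the 9 were above 0, beside 52.9% of all gene IDs. By DESeq2, which takes another estimate of the spread, 1 of the 9 was called, CDKN1B, beside 0.783% of gene IDs called higher and 0.888% called lower.

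**Figure D1:**
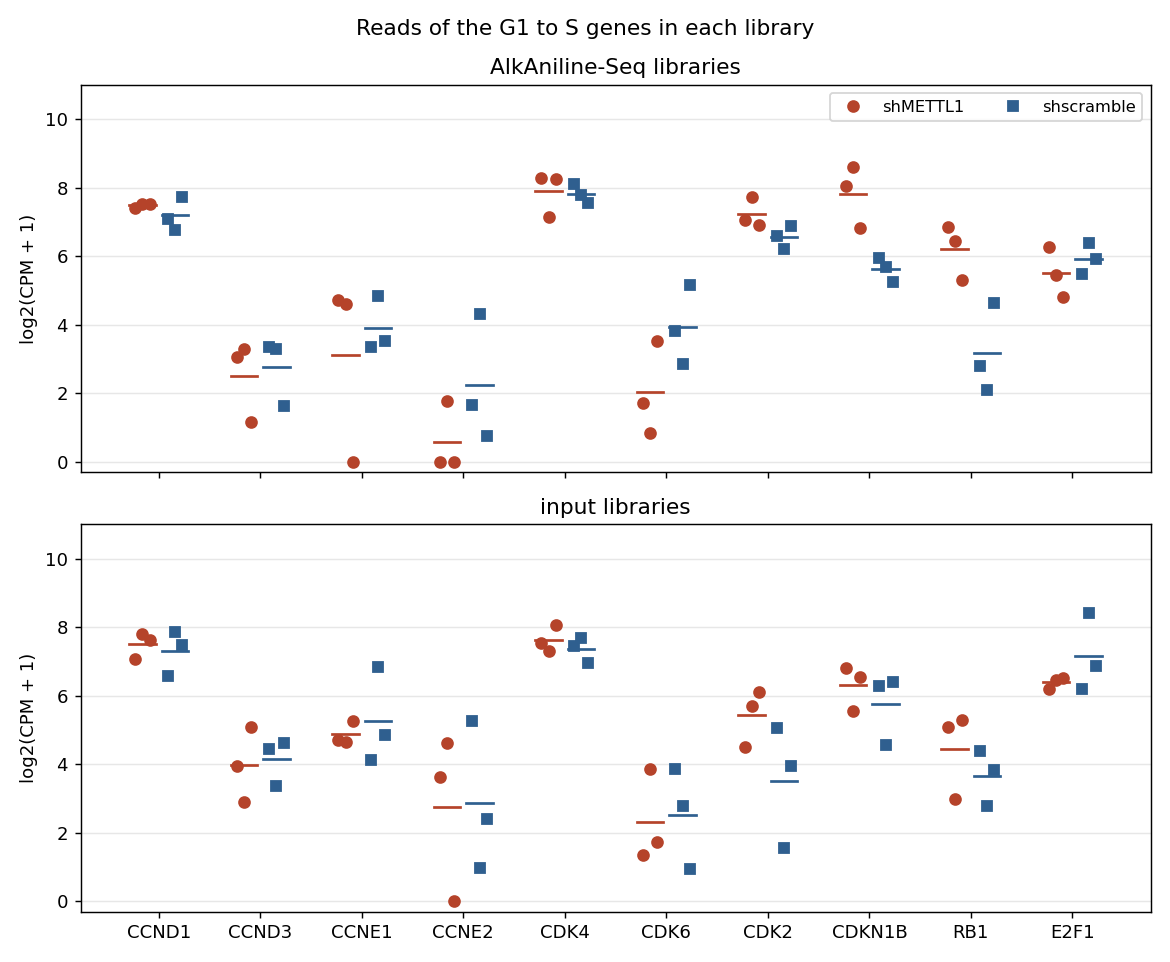
Reads of the 10 genes in each library as log2(CPM + 1), CPM being reads per 1000000 after TMM scaling, with shMETTL1 as circles left of shscramble as squares, points from left to right in replicate order and lines at the mean of the log2 values (n = 3). In AlkAniline-Seq every shMETTL1 point lies above every shscramble point for CDKN1B, RB1 and CDK2, and in the input the groups overlap for all 10 genes.

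Of the cyclins, CCND1 (ENSG00000110092) encodes cyclin D1, the growth-factor-induced partner of CDK4 and CDK6. It had 444, 454 and 438 AlkAniline-Seq reads in shMETTL1, against 251, 292 and 303 in shscramble. After TMM scaling this was 179 ± 7.19 CPM in shMETTL1 and 152 ± 53.8 CPM in shscramble (SD, n = 3 each), and the groups overlapped, since shscramble replicate 3 reached 212 CPM. The log2 fold change was 0.24 with a standard error (SE) of 0.45 (edgeR, adjusted p = 0.975). In the input CCND1 had 515, 772 and 599 reads in shMETTL1, against 302, 475 and 570 in shscramble, with a log2 fold change of 0.14 (SE 0.47). These reads came from more positions in shMETTL1 inputs, where 70, 45 and 43 positions were read, than in shscramble inputs, where 40, 21 and 37 were, and the groups did not overlap (exact two-sided permutation test, p = 0.1, the smallest that 3 against 3 allow). Among the 10 genes this was so of CCND1 and CDK2, both higher in shMETTL1, beside 10.6% of all gene IDs higher and 0.162% lower without overlap. Over all gene IDs 311979, 153839 and 165105 positions were read in the shMETTL1 inputs, against 158448, 72098 and 154432 in the shscramble inputs, and 9 of the 10 genes had the higher mean number of positions in shMETTL1. The part of this in the result was not tested.

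CCND3, the gene of cyclin D3, was thinly read in AlkAniline-Seq, with 19, 22 and 3 reads in shMETTL1 and 17, 24 and 3 in shscramble. Both groups held a library with 3 reads, and the log2 fold change was −0.22 (SE 1.25), within the spread between replicates. The input gave 56, 22 and 100 reads in shMETTL1 and 66, 19 and 77 in shscramble, again overlapping.

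CCNE1 and CCNE2 encode the E-type cyclins that activate CDK2 at the end of G1. CCNE1 had 66, 58 and 0 AlkAniline-Seq reads in shMETTL1, against 17, 75 and 15 in shscramble. The missing reads of shMETTL1 replicate 3 stood beside 2 libraries of the same group with about as many reads as the highest shscramble library, and the log2 fold change was 0.03 (SE 1.59). CCNE2 had 0, 6 and 0 reads in shMETTL1, against 4, 51 and 1 in shscramble, too few for a test. A count of 0 allows up to 3 reads, so shMETTL1 replicates 1 and 3 could not be told from shscramble replicate 3. In the input CCNE1 had 98, 83 and 113 reads in shMETTL1 and 52, 235 and 90 in shscramble, and CCNE2 had 44, 82 and 0 in shMETTL1 and 118, 2 and 14 in shscramble. All 235 CCNE1 reads of shscramble replicate 2 began at 1 position, and without that replicate the input log2 fold change turned to 0.38, against −0.87 (SE 0.94) with it.

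CDK4, the main kinase partner of cyclin D, had 814, 355 and 721 AlkAniline-Seq reads in shMETTL1, against 505, 600 and 269 in shscramble. The low shMETTL1 library fell inside the shscramble range, and the scaled levels were 253 ± 96.0 CPM in shMETTL1 and 228 ± 43.0 CPM in shscramble (SD, n = 3 each). Its log2 fold change was 0.15 (SE 0.41, edgeR adjusted p = 0.985), and in the input it was 0.27 (SE 0.44). CDK4 was the only one of the 10 genes with a position read in all 6 AlkAniline-Seq libraries, at which 250, 1 and 1 reads began in shMETTL1, against 124, 18 and 6 in shscramble. At that position a single library of each group held most of the AlkAniline-Seq reads. In the input 19, 0 and 4 reads began there in shMETTL1, against 1, 396 and 1 in shscramble. The 396 were 93.8% of the CDK4 reads of the shscramble replicate 2 input, so the CDK4 value of that input rests mostly on this position.

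CDK6, the other cyclin D kinase, had 6, 2 and 25 AlkAniline-Seq reads in shMETTL1, against 24, 17 and 50 in shscramble. After scaling, shMETTL1 replicate 3 at 10.5 CPM lay above shscramble replicate 2 at 6.28 CPM, so the groups overlapped. The log2 fold change of −1.98 (SE 1.48) was the lowest of the 9 tested and did not pass the test (unadjusted p of 0.198, edgeR adjusted p = 0.877). It was −3.47 without shMETTL1 replicate 3 and −1.04 without shscramble replicate 3. In the input CDK6 had 6, 47 and 7 reads in shMETTL1 and 43, 12 and 3 in shscramble, with 1 high library in each group.

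CDK2 (ENSG00000123374), the kinase of cyclin E, had 346, 532 and 282 AlkAniline-Seq reads in shMETTL1, against 177, 199 and 167 in shscramble. Scaled, these were 133, 213 and 119 CPM in shMETTL1 and 95.8, 73.5 and 117 CPM in shscramble, so that the groups did not overlap but the lowest shMETTL1 library was only just above the highest shscramble library. By edgeR the log2 fold change was 0.70 (SE 0.53, unadjusted p of 0.207, adjusted p = 0.884), and 0.69 without shscramble replicate 1. The reads made up 10.5%, 9.37% and 6.14% of the coverage of CDK2 in shMETTL1 and 7.50%, 5.85% and 12.6% in shscramble, which overlapped. In the input the reads were 84, 175 and 209 in shMETTL1, against 102, 4 and 47 in shscramble, with a larger log2 fold change of 1.53 (SE 1.09, adjusted p = 0.859), which was 1.02 without shscramble replicate 2. More CDK2 positions were read in the shMETTL1 inputs, 23, 11 and 17, than in the shscramble inputs, 10, 4 and 10, without overlap (exact permutation test, p = 0.1).

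Non-overlap of the scaled reads was seen at 3 of the 9 genes tested in AlkAniline-Seq, CDK2, CDKN1B and RB1, each higher in shMETTL1, beside 7.1% of all gene IDs tested. None was lower without overlap, beside 7.38% of all gene IDs.

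CDKN1B (ENSG00000111276), which encodes the inhibitor p27, had the smallest p of the 9 genes tested in AlkAniline-Seq. It had 690, 963 and 265 AlkAniline-Seq reads in shMETTL1, against 112, 136 and 53 in shscramble. The lowest shMETTL1 library was above the highest shscramble library before scaling and after it, when the levels were 265, 385 and 111 CPM in shMETTL1 and 60.6, 50.2 and 37.0 CPM in shscramble. The means were 254 ± 137 CPM in shMETTL1 and 49.3 ± 11.8 CPM in shscramble (SD, n = 3 each). The log2 fold change was 2.36 (SE 0.55), with an unadjusted p of 0.000547 and an adjusted p of 0.466 by edgeR, so that it did not pass over all gene IDs. By DESeq2 on the same reads it passed, with a log2 fold change of 2.37 (SE 0.55) and an adjusted p of 0.00458. Over the 15 alternatives run for this value the adjusted p lay between 0.00458 and 0.9998, and without a filter on low counts edgeR also called it, at 0.0230, beside 0.0683% of gene IDs called higher. Leaving out each library in turn gave 1.95 to 2.74, with adjusted p-values from 0.361 to 0.950 by edgeR, and 2.53 without shscramble replicate 1.

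The share of coverage, the reads that begin at the gene's positions as a percent of all reads that span them, does not depend on library size. For CDKN1B it was 11.6%, 11.5% and 6.82% in shMETTL1, against 5.82%, 6.65% and 2.18% in shscramble. The lowest shMETTL1 library lay just above the highest shscramble library, and the means were 9.96% ± 2.72 in shMETTL1 and 4.88% ± 2.38 in shscramble (SD, n = 3 each, exact two-sided permutation test, p = 0.1, the smallest possible). Over all covered positions CDKN1B was the only one of the 9 genes with a full set of values whose groups did not overlap in this share, beside 5.3% of gene IDs higher and 6.77% lower without overlap. With positions of a coverage of at least 10 alone, CDKN1B and RB1 of 8 genes did not overlap, both higher, beside 5.22% of gene IDs higher and 6.79% lower. Its scaled coverage, the reads spanning its positions per 1000000 of all coverage, was 152, 190 and 109 in shMETTL1 and 77.7, 55.1 and 113 in shscramble, which overlapped.

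The input did not show the same separation for CDKN1B. Its input reads were 429, 159 and 283 in shMETTL1, against 244, 46 and 272 in shscramble, and the groups overlapped. The input log2 fold change was 0.44 (SE 0.71, edgeR adjusted p = 0.949), and 0.05 without shscramble replicate 2. The input share of coverage was 12.2%, 8.54% and 13.6% in shMETTL1 and 13.7%, 3.52% and 11.1% in shscramble, and 0 of the 10 genes had input shares without overlap, beside 7.1% of gene IDs higher and 3.4% lower.

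Set against the input in 1 fit over the 12 libraries, the AlkAniline-Seq difference of CDKN1B exceeded the input difference by 2.04 on the log2 scale (SE 0.88, unadjusted p of 0.0305, edgeR adjusted p = 0.544), and by 1.93 without shscramble replicate 1 (unadjusted p of 0.0787). Leaving out each replicate in turn, its AlkAniline-Seq and input libraries together, gave 1.33 to 2.51. It was the only one of the 10 genes under an unadjusted p of 0.05 in that fit, beside 5.3% of gene IDs higher and 3.04% lower, which are 683 and 392 gene IDs. Scaling by library size alone gave 254 gene IDs higher and 530 lower and none of the 10 genes, with CDKN1B at 1.61 (unadjusted p of 0.0919). After adjustment 0 of the 10 were called with TMM, beside 0.00777%. DESeq2 called 0 of the 10 there, beside 0.396% higher and 0.38% lower. Within shMETTL1 cells CDKN1B was higher in AlkAniline-Seq than in input by 1.54 (SE 0.63, adjusted p = 0.513), and within shscramble cells its log2 fold change over input was −0.50 (SE 0.62, adjusted p = 0.765). Neither passed the test.

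The CDKN1B reads were spread over 15, 17 and 16 positions in shMETTL1 and 16, 15 and 9 in shscramble, so the groups differed in reads per position more than in positions read. In shMETTL1 15 positions had 50 or more reads summed over the 3 libraries, and in shscramble 2 had. These reads were not scaled for depth. Over all gene IDs the single shMETTL1 libraries had 18692, 18620 and 16410 positions of at least 50 reads, against 6388, 16371 and 8624 in shscramble. The count summed over libraries was not made for all gene IDs. The highest position of each library held 28.7%, 13.2% and 32.8% of the gene's reads in shMETTL1, against 50%, 58.8% and 50.9% in shscramble. When the highest position of each library was left out, 492, 836 and 178 reads remained in shMETTL1, against 56, 56 and 26 in shscramble, and the log2 fold change was 3.36 (SE 0.70, adjusted p = 0.306). With the highest position alone it was 0.88 (SE 0.56, adjusted p = 0.9998).

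The single positions of CDKN1B were seldom the same from library to library. The position with the most reads had 198, 0 and 52 in shMETTL1, against 1, 0 and 0 in shscramble. The next had 68, 98 and 0 in shMETTL1, against 3, 0 and 0 in shscramble, and the third had 0, 1 and 80 in shMETTL1, against 6, 80 and 0 in shscramble. None of them was read in all 3 shMETTL1 libraries. Of 1918 CDKN1B reads in shMETTL1, 760 (39.6%) began at positions that had no read in any shscramble library, and of 301 in shscramble 111 (36.9%) began where shMETTL1 had none. No CDKN1B position passed the low-count filter for a test of its own.

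**Figure D2:**
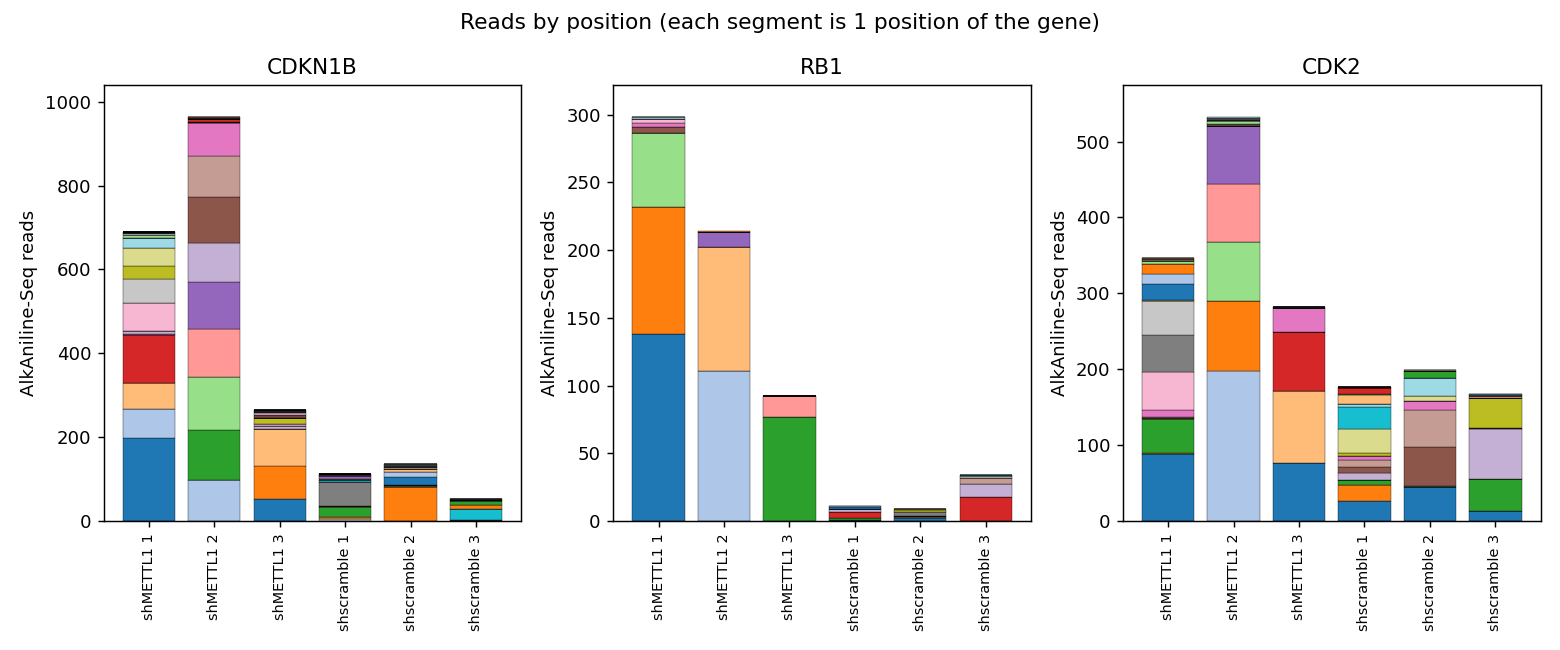
AlkAniline-Seq reads of CDKN1B, RB1 and CDK2 in each library, not scaled for depth, stacked by position so that each segment is 1 position (colours repeat after 20 positions). The 3 shMETTL1 bars are the taller in each panel, and the 3 RB1 bars of shMETTL1 are built from different positions.

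RB1 (ENSG00000139687), the gene of the retinoblastoma protein, had 298, 214 and 92 AlkAniline-Seq reads in shMETTL1, against 11, 9 and 34 in shscramble. All shMETTL1 libraries were higher than all shscramble libraries, and the scaled levels averaged 79.6 ± 38.2 CPM in shMETTL1 and 11.0 ± 11.1 CPM in shscramble (SD, n = 3 each). The log2 fold change of 2.86 (SE 1.12) had an unadjusted p of 0.0211 and an adjusted p of 0.614 by edgeR, and an adjusted p of 0.0950 by DESeq2. It was 2.45 to 4.13 when each library was left out in turn, the highest without shscramble replicate 3, and 2.56 without shscramble replicate 1.

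The RB1 reads of each library came from very few positions. They began at 7, 4 and 2 positions in shMETTL1 and at 6, 6 and 5 in shscramble, with 46.3%, 51.9% and 83.7% of the reads at the highest in shMETTL1 and 45.5%, 33.3% and 52.9% in shscramble. The position with the most reads had 138, 0 and 0 in shMETTL1 and 1, 2 and 0 in shscramble, and the next had 0, 111 and 0 in shMETTL1 and none in shscramble. No RB1 position was read in more than 1 shMETTL1 library, and 6 positions had 50 or more unscaled reads in shMETTL1, against 0 in shscramble. Over all gene IDs each shMETTL1 library also had more positions of at least 50 reads than any shscramble library. With the highest position of each library left out, 160, 103 and 15 reads remained in shMETTL1, against 6, 6 and 16 in shscramble, so the groups then overlapped.

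The coverage of RB1 was low, with 322, 223 and 511 spanning reads summed over its positions in shMETTL1 and 74, 174 and 133 in shscramble. The reads were 92.5%, 96.0% and 18.0% of it in shMETTL1, against 14.9%, 5.17% and 25.6% in shscramble, and the groups overlapped (exact permutation test, p = 0.2). At positions with a coverage of at least 10 the share was 98.3%, 99.5% and 18.0% in shMETTL1, against 2.70%, 1.24% and 16.4% in shscramble, without overlap (exact permutation test, p = 0.1). In shMETTL1 replicates 1 and 2 nearly every read that spanned an RB1 position therefore also began there. The input had 127, 24 and 116 RB1 reads in shMETTL1, against 63, 12 and 43 in shscramble, with a log2 fold change of 0.99 (SE 1.14, adjusted p = 0.919), and over input the difference was 1.99 (SE 1.51, adjusted p = 0.770), with 1.18 without shscramble replicate 1 and 3.23 without shscramble replicate 3. The scaled input coverage of RB1, which was 16.9, 14.3 and 13.2 in shMETTL1 and 11.1, 6.31 and 8.91 in shscramble, did not overlap. RB1 was the only one of the 10 genes of which that was so in the input, beside 10.6% of all gene IDs higher and 2.38% lower without overlap.

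E2F1, the transcription factor that RB restrains, had 198, 108 and 65 AlkAniline-Seq reads in shMETTL1, against 80, 225 and 85 in shscramble. The groups overlapped, at 48.8 ± 24.9 CPM in shMETTL1 and 61.9 ± 20.01 CPM in shscramble (SD, n = 3 each), and the log2 fold change was −0.34 (SE 0.86). In the input E2F1 had 281, 298 and 276 reads in shMETTL1, against 231, 703 and 377 in shscramble. The 3 shMETTL1 inputs were close together and shscramble replicate 2 was far above them, and the log2 fold change of −1.09 (SE 0.58, unadjusted p of 0.0793, edgeR adjusted p = 0.801) was −0.19 without that replicate.

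**Figure D3:**
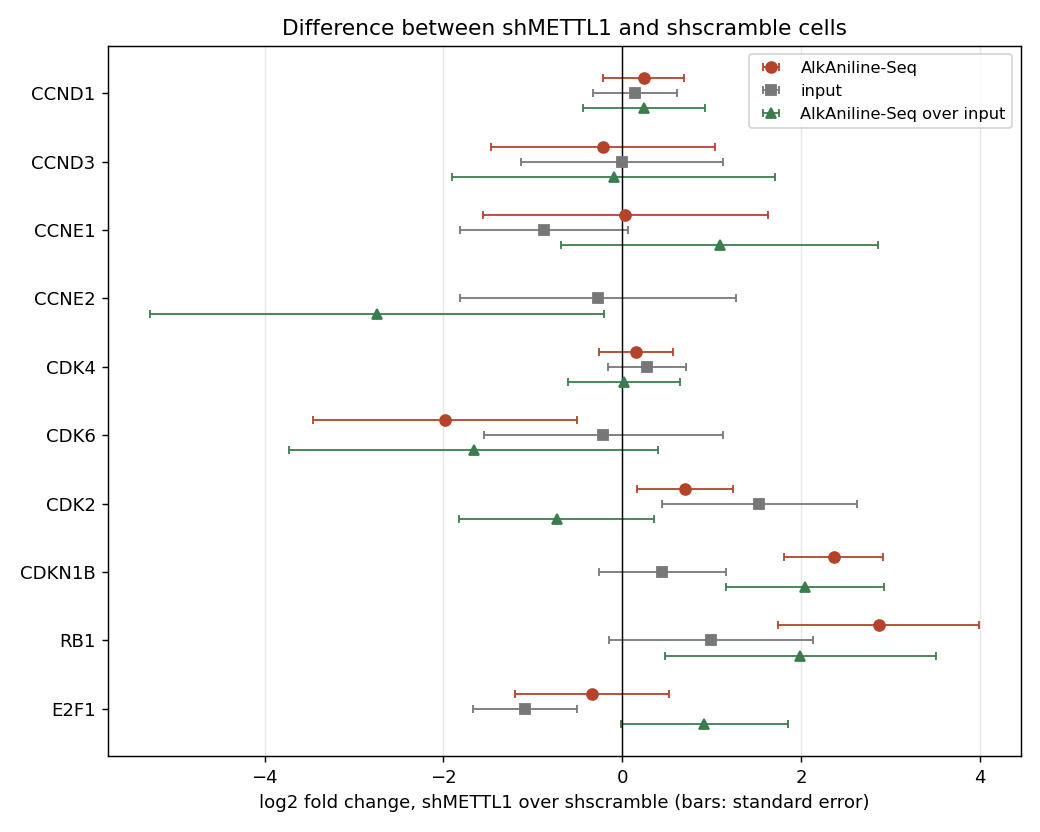
The log2 fold change of shMETTL1 over shscramble for each gene, with bars of 1 standard error, in AlkAniline-Seq (circles), in the input (squares) and as the difference between both (triangles). CDKN1B at 2.36 and RB1 at 2.86 stand highest in AlkAniline-Seq, and CCNE2 was not tested there.

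In the input as a whole, 0 of the 10 genes were called at an adjusted p under 0.05, beside 0.0% of all gene IDs, and 0 had an unadjusted p under 0.05, beside 1.64% higher and 4.62% lower. These are 193 gene IDs higher and 542 lower, and scaling by library size alone gave 292 higher and 182 lower, again with 0 of the 10. DESeq2 called 0 of the 10, beside 0.107% higher and 0.169% lower. The median log2 fold change was 0.07 over the 10 genes and −0.04 over all gene IDs, and 5 of the 10 were above 0. No gene of the 10 had scaled input reads without overlap between the groups, beside 7.64% of gene IDs higher and 5.84% lower. The shscramble replicate 2 input stood apart over all gene IDs. It read 72098 positions, the fewest of the inputs, and 57.7% of them held a single read, against 25.9% to 32.0% in the other inputs. The part of this library in the input and over-input values was not tested.

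Between the assays, CDK2 had more AlkAniline-Seq than input reads in both groups after scaling, by 1.63 on the log2 scale in shMETTL1 cells (SE 0.79, unadjusted p of 0.0508, edgeR adjusted p = 0.603) and by 2.36 in shscramble cells (SE 0.81, unadjusted p of 0.00809, adjusted p = 0.203). For E2F1 the log2 difference in shscramble cells was −1.77 (SE 0.68, unadjusted p of 0.0158, edgeR adjusted p = 0.263). At an unadjusted p under 0.05 in AlkAniline-Seq against input, 1 of the 10 genes was higher in shMETTL1 cells (CDKN1B), beside 3.53% of gene IDs, and 0 were lower, beside 4.74%. In shscramble cells 1 was higher (CDK2), beside 4.32%, and 1 was lower (E2F1), beside 8.86%. None of the 10 genes was called in AlkAniline-Seq against input, beside 0.21% of gene IDs in shMETTL1 and 0.637% in shscramble.

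**Figure D4:**
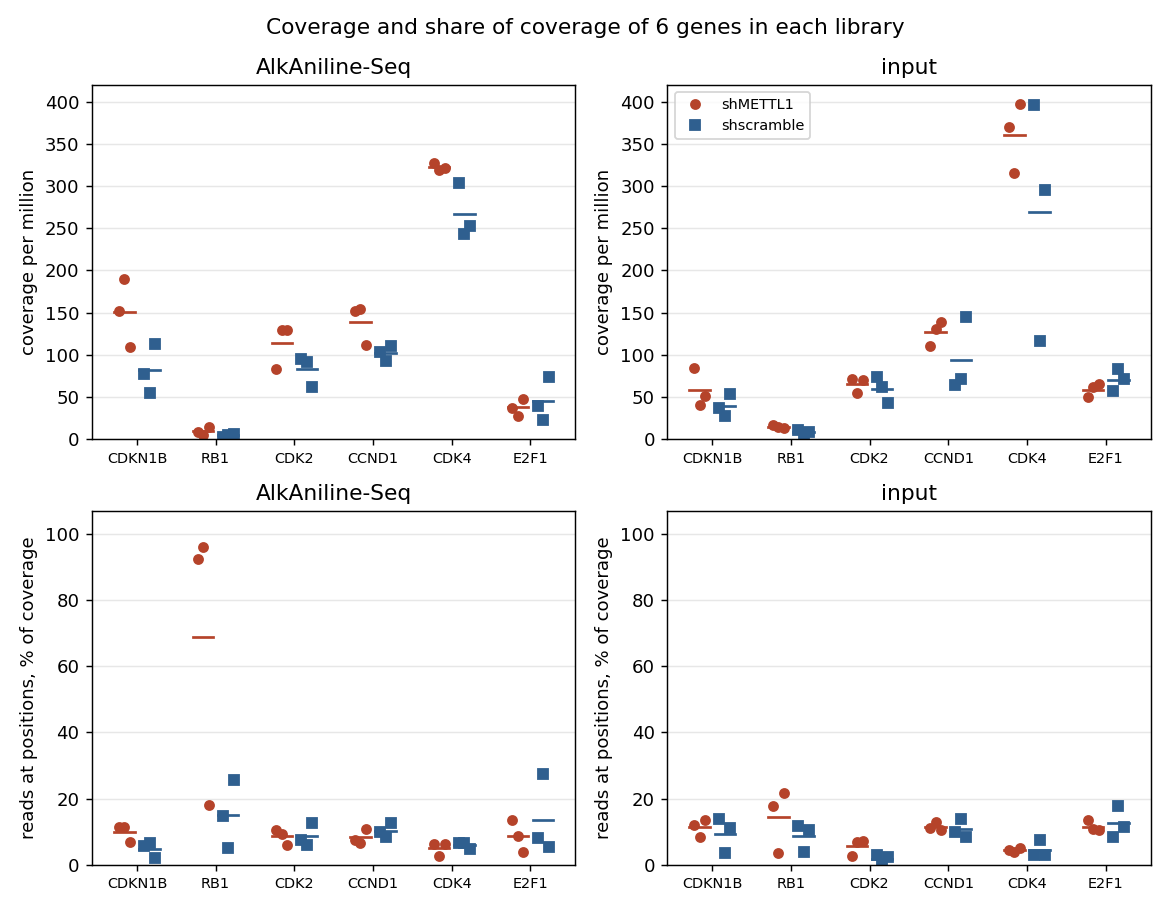
Scaled coverage (top, reads spanning the gene's positions per 1000000 of all coverage) and the reads beginning at positions as a percent of coverage (bottom) for 6 genes in AlkAniline-Seq (left) and input (right), with shMETTL1 circles left of shscramble squares and lines at the means (n = 3). The AlkAniline-Seq share of CDKN1B lies between 6.82% and 11.6% in shMETTL1 and between 2.18% and 6.65% in shscramble, and RB1 reaches 96.0% in shMETTL1 replicate 2.

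Coverage of 2 other genes separated the groups in AlkAniline-Seq. CCND1 had a scaled coverage of 152, 154 and 112 in shMETTL1, against 104, 93.2 and 111 in shscramble, and CDK4 had 327, 319 and 321 in shMETTL1, against 304, 243 and 253 in shscramble. Both were higher without overlap, CCND1 by a narrow margin, beside 5.3% of all gene IDs, and none of the 10 genes was lower, beside 8.47%. The share of coverage of these genes overlapped between the groups, at 7.42%, 6.70% and 11.0% in shMETTL1 and 9.79%, 8.44% and 12.7% in shscramble for CCND1 (exact permutation test, p = 0.4).

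Over the 722 positions of the 10 genes, 377 had a read in at least 1 AlkAniline-Seq library. Of these, 230 (61.0%) were read in exactly 1 library, close to the 62.9% of all gene IDs, and 1 (0.265%) in all 6, against 1.897% of the positions of all gene IDs. Reads were seen only in shMETTL1 at 151 of them, only in shscramble at 130 and in both groups at 96, which was 40.1%, 34.5% and 25.5%, beside 39.2%, 39.9% and 21.0% over all gene IDs. RB1 had the fewest shared positions after CCNE1 and CCNE2, with 3 of 23 read in both groups.

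Only 6 of the 722 positions passed the low-count filter in AlkAniline-Seq, 4 of CDK4 and 2 of CDK2, and 0 were called by edgeR, beside 0.0% of all positions tested. DESeq2 called 0 of the 6, beside 1.34% higher and 4.02% lower. By edgeR 0 were at an unadjusted p under 0.05, beside 1.56% higher and 6.62% lower. The CDK2 position with the most reads, one of those tested, had 88, 0 and 76 in shMETTL1, against 26, 45 and 13 in shscramble. Its shMETTL1 replicates lay on both sides of the shscramble range.

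The study's own thresholds, a change of more than 1.5-fold in the fold over input and an unadjusted p under 0.05, were passed by 4 positions of the 10 genes, with the lower fold in shMETTL1. They were 4 of the 377 positions read (1.06%), beside 1.05% of all positions read. None was higher, beside 0.203%. One lay in CCNE2, one in CDK4 and the others in E2F1, and each had 0 reads in all 3 shMETTL1 libraries, where the deposited fold is therefore 0. No shscramble input had a read there. Of the shMETTL1 inputs, replicate 2 had 75 reads at the CCNE2 position and replicate 3 had 1 read at an E2F1 position. Without an input read, the fold of a library with a read is the share of coverage, as a fraction, plus 1. Such a fold cannot lie below 1, so at these positions the direction follows from which libraries had any read. Where the mean fold of a group was 0, the change was taken here as the other mean plus 1. The 1.5-fold cut was therefore passed in advance at these positions. At the CCNE2 position the fold was 0 in every shMETTL1 library and 2 in every shscramble library, so its p-value rests on no spread. The shscramble libraries had 2, 1 and 1 reads at the CCNE2 position and 2, 17 and 1 at the CDK4 position. At the E2F1 positions they had 3, 1 and 11 reads and 5, 9 and 34 reads. A count of 0 allows up to 3 reads in a library, so at the CCNE2 position the groups could not be told apart at this depth.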

How the data were processed

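m7G AlkAniline-Seq and input libraries of shMETTL1 and shscramble LNCaP-AI cells were analysed from the deposited tables, 1 per replicate, with one row per position. The authors deposited counts of reads beginning at and covering each position, a fraction, which is count divided by coverage, and a ratio of this fraction to that of the input. In all 6 files this ratio was the plain quotient where both fractions were above 0, the fraction plus 1 where only the input fraction was 0, and 0 where the fraction was 0 (100% of positions, relative tolerance 0.001). Build hg19 and the tools cutadapt 1.9.1, Bowtie2 2.2.4 and bedtools 2.24 are listed, without roles, in the submitters' processing notes. How reads were filtered and which annotation was used is not given in the sources used here. Positions carry no coordinate and were matched by row order, the Ensembl column being identical in all files. Neither promoter sequences nor coordinates are printed.

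Counts were summed per gene and fitted over all gene IDs with edgeR 4.0.16 (R 4.3.3, TMM, minimum count 10, minimum total 15, Benjamini-Hochberg adjustment). The filter left 11097 gene IDs in AlkAniline-Seq, 11740 in the input and 12877 in the 12-library fit, where AlkAniline-Seq over input was the interaction. DESeq2 1.42.0 and limma 3.58.1 (pseudocounts 1 on CPM, 0.01 and 0.001 on shares) were alternatives, with other filters, scalings and left-out replicates. Single values were compared by exact permutation tests, 9 shares of coverage and 10 counts of positions in AlkAniline-Seq, and 10 of each in the input. Shares at positions with a coverage of at least 10 were tested in the same way in both assays, for each gene with a full set of values. The coefficient of variation between replicates was 0.899 for genes in AlkAniline-Seq, 0.806 in the input and 1.42 for positions, which limits precision. Reads carry no molecular identifiers, so limits at a count of 0 cover counting error only. The genes and the tests were chosen with earlier results of these data known. All 10 genes are named, with the 3 positions of most reads as the rule for single positions. Any other position or count was picked after its values were seen. The symbols come from the gene list, since 0 rows of the reference table (59792 genes) hold an Ensembl ID. For the same reason other genes of the pathway were not counted. The hairpin was copied from the study's oligo list.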

Additional observations from a re-analysis of the deposited data

How the results depend on the processing

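No gene of the 10 was called in AlkAniline-Seq by edgeR, 1 (CDKN1B) was called by DESeq2 and 1 (CDKN1B) without a filter (log2 fold change 2.48, adjusted p = 0.0230), and the cause was not tested. For positions the count was 0 by edgeR and 4 by the study's thresholds as applied here. Leaving out a replicate gave 0 to 0 calls in AlkAniline-Seq, in the input, over input and for positions, and was not run for AlkAniline-Seq against input within a group. Over input 1 gene (CDKN1B) had an unadjusted p under 0.05 with TMM and 0 with library size alone, 10 reads in every library, limma or the replicate block (CDKN1B at an unadjusted p of 0.0919, 0.0707, 0.155 and 0.0890). CDKN1B, RB1, CDK2, CDK6 and E2F1 kept their direction in AlkAniline-Seq under all alternatives run.

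The following turned direction, each log2 value from one smaller than its standard error, and the causes were not tested. In AlkAniline-Seq, the share of coverage gave CCND1 −0.28 and −0.31, CCNE1 −0.60 and −1.66, and CDK4 −0.30 and −0.37 (pseudocounts 0.01 and 0.001), and for CCNE1 library size alone gave −0.054 and the highest position −0.044. In the input, DESeq2 gave CCND1 −0.16 and CDK4 −0.00094, the highest position CCND1 −0.17, CDK4 −0.89 and CCNE2 0.074, leaving it out (added after seeing the data) CCND1 −0.44, CCND3 0.11 and CCNE1 0.76, library size alone CCND3 0.19 and CDK6 0.037, 10 reads in every library CCND3 0.10, and a coverage of at least 10 a CDK4 share difference of −0.0418 percentage points. Over input, library size alone gave CCND1 −0.35 and CDK4 −0.55, 10 reads in every library CCND1 −0.22 and CDK4 −0.41, no filter CDK4 −0.090, and limma CCND3 0.039, CCNE1 −0.26 and CDK4 −0.054.

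Without single replicates, AlkAniline-Seq values ranged from −0.63 to 0.27 for CCND3, −0.44 to 0.75 for CCNE1 and −0.0075 to 0.45 for CDK4. Input values ranged from −0.17 to 0.44 for CCND1, −0.79 to 0.39 for CCND3, −1.34 to 0.38 for CCNE1, −1.32 to 2.08 for CCNE2 and −1.80 to 0.76 for CDK6. Over input they ranged from −0.31 to 0.55 for CCND1, −0.91 to 1.18 for CCND3, −5.79 to 0.085 for CCNE2, −0.24 to 0.16 for CDK4 and −3.53 to 0.44 for CDK6.

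Same-numbered samples did not deviate together (correlations of −0.0262 to 0.0527). Each AlkAniline-Seq library is matched to the input of the same number, and such low correlations cannot show that samples are unpaired. With the replicate number as a replicate block, 0 of the 10 genes and 0 positions were called, CDKN1B was at 2.22 (adjusted p = 0.555) and RB1 at 3.31, CCNE1 turned to −0.90, and with a replicate block over input CCND3 turned to 0.11 and CDK4 to −0.056. Scaling by library size alone moved the median over all gene IDs from 0.24 to −0.28 over input and from −0.04 to 0.22 in the input. Over input, 6 of 10 genes were above 0 with TMM and 4 with library size alone.

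With 3 libraries a group and reads gathered at few positions, most differences here lie within their error. CCND3, CCNE1, CCNE2 and CDK6 had AlkAniline-Seq libraries of 0 to 3 reads, which leaves their values the least certain.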

Other observations

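One CDKN1B position, picked after its values were seen, was read in every input library, with 58, 105 and 51 reads in shMETTL1 and 24, 22 and 27 reads in shscramble. In AlkAniline-Seq the same position had 8, 94 and 7 reads in shMETTL1 and 0, 2 and 1 reads in shscramble. Both assays separated the groups there without overlap before any scaling. It was 1 of 99 CDKN1B positions, and how many positions of all genes separate the groups in both assays was not counted. The difference was not tested.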
